A study of Mus musculus with 8 samples.

Results

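The 4 genes described here are Opn1sw and Opn1mw, the mouse cone opsins, Arr3, the cone arrestin, and Kcne2, an auxiliary subunit of voltage-gated channels. They are 4 of the 18193 gene symbols that could be read on the arrays, and they were taken because of their low signal after injection, so the comparison of injected with control retina is given for them as a description with no test. All 7 probe sets that carry 1 of these symbols are shown, 2 for Opn1sw, 1 for Opn1mw, 3 for Arr3 and 1 for Kcne2, out of 45101 on the array. RNA from 8 mouse retina samples had been hybridised to Affymetrix arrays, 1 sample per array. The injected group was 4 retinas that the labels call injected and class as treated with a compound, without naming the compound, dose, route, interval, strain or age. The control group was 4 fresh retinas with a time label of 0 d. No sham-injected group was among the samples, so the compound, the injection and the handling of the tissue cannot be told apart. The labels do not say whether retinas of a group were from different animals, so the p-values given below for other genes measure only the spread between these samples, which may be technical.

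Cones are the photoreceptors of daylight and colour vision. A cone opsin bound to retinal absorbs light and activates the cone transducin, the signal passes through a phosphodiesterase to cyclic nucleotide-gated channels, and cone arrestin binds the phosphorylated opsin to end the response. Mouse cones carry a short-wavelength opsin, a medium-wavelength opsin or both, in proportions that vary across the retina, and they are far fewer than rods. Kcne2 encodes a small single-pass membrane protein that modulates KCNQ1, KCNH2 and HCN channels and is best known from stomach, heart and choroid plexus.

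Upstream sequences of the 4 genes are printed because the genes were low together, and homeodomain factors of photoreceptors (Crx, Otx2) and nuclear receptors (Thrb, Rxrg, the Ror family) are known regulators of cone genes. Each is the stretch of 250 bases before a RefSeq transcript start, on the gene's strand, in build GRCm38.p6. Capitals mark every TAATC, the core of Crx and Otx2 sites, and every AGGTCA, the half-site of nuclear receptors, searched on both strands. No match of one overlapped a match of the other.
Opn1sw, chr6:29380514-29380763, minus strand: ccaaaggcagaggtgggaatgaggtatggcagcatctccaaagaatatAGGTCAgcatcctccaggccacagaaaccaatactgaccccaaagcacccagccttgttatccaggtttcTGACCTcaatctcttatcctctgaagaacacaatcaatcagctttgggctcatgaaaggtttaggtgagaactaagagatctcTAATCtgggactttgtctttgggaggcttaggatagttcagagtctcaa
Opn1mw, chrX:74127216-74127465, plus strand: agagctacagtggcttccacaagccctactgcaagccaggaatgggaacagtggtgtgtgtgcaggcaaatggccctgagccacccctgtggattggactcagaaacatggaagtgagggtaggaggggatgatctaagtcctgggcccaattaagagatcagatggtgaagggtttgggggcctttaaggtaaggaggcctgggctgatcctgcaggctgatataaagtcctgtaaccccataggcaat
Arr3, chrX:100605247-100605496, plus strand: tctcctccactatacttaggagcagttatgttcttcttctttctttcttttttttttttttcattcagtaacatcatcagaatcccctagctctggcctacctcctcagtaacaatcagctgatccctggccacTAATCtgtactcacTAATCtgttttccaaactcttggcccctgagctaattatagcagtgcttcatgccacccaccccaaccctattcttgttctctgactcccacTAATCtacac
Kcne2, first start, chr16:92292139-92292388, plus strand: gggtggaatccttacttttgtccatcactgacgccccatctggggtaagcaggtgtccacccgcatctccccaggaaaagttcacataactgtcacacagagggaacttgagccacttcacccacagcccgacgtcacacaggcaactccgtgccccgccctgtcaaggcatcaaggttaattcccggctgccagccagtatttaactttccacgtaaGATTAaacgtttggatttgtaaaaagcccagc

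The Arr3 window held TAATC 3 times, at 116 to 112, 102 to 98 and 10 to 6 bases before the start, all on the gene's strand. The Arr3 gene record begins inside this window, ahead of the transcript start used, so the last of the 3 matches lies within the annotated gene. The Opn1sw window held it once, at 49 to 45 bases before the start, and the first Kcne2 window once on the opposite strand, at 32 to 28 bases. The Opn1mw window and that of the second Kcne2 start (chr16:92295366-92295615) held neither motif. AGGTCA was found at Opn1sw only among these 5 windows, at 202 to 197 bases and, on the opposite strand, at 132 to 127 bases before the start. Over 32851 upstream windows of the same length in the RefSeq table, 19.8% held at least 1 TAATC and 0.6% at least 3, while 14.0% held at least 1 AGGTCA and 1.4% at least 2. A match is a description of the letters and does not show binding.

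The arrays read as retina. The cone transducin subunit Gnat2 lay between log2 values of 13.92 and 15.04 on injected arrays and between 15.18 and 15.47 on control arrays, and Rlbp1, a retinaldehyde-binding protein of Müller glia, between 13.51 and 14.17 on injected and 14.05 and 14.20 on control arrays. Gfap, a filament protein of glia, lay between 13.57 and 15.78 on injected and between 13.68 and 14.08 on control arrays. Injected replicate 3 stood apart, with the highest median intensity (766, against 495 to 693 on the others) and the lowest array weight that limma estimated (0.191, against 0.646 to 1.83). Control replicate 2 carried the most signal of pigment epithelium genes. Results are therefore also given without these arrays.

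The short-wavelength opsin Opn1sw had the lowest injected signal relative to control of the 4 genes, each read at its brightest probe set. Its brighter probe set, 1449132_at, had deposited intensities of 2268, 920, 854 and 4551 in injected replicates 1 to 4, against 6982, 6409, 8016 and 6881 in control replicates 1 to 4. Injected replicates 2 and 3 were lowest and replicate 4 was highest of the injected arrays, and the groups did not overlap. On the log2 scale after quantile normalisation, this probe set averaged 10.69 ± 1.20 in injected and 12.76 ± 0.14 in control retinas (SD, n = 4 each), a difference of -2.07 ± 0.51 (SE), which puts injected signal at 23.8% of control. Without injected replicate 3 the difference was -1.68, and without injected replicate 4 it was -2.59. These are bulk samples, so fewer cones and less opsin RNA per cone cannot be told apart.

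The second Opn1sw probe set, 1418552_at, was designed on the same transcript record. It read 831, 540, 970 and 1891 intensity units in injected replicates 1 to 4, against 2444, 2232, 2686 and 3028 in the controls. The groups again did not overlap, and injected replicate 4 was again nearest to the controls. The log2 mean was 9.88 ± 0.64 in injected and 11.34 ± 0.19 in control retinas (SD, n = 4 each), a difference of -1.46 ± 0.31 (SE). The probe sets of this gene thus differed from each other by 0.61 log2 units in the size of the reduction, although they gave the same direction on every injected array.

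Opn1mw, the medium-wavelength opsin, had intensities of 2046, 1049, 994 and 2503 in injected replicates 1 to 4, against 4170, 3516, 4250 and 3726 in the controls. As for Opn1sw, replicates 2 and 3 were the lowest injected arrays and no injected array reached a control. The log2 mean was 10.53 ± 0.71 in injected and 11.92 ± 0.12 in control retinas (SD, n = 4 each), a difference of -1.39 ± 0.33 (SE) or 38.3% of control. Without injected replicate 3 it was -1.13. Read from the brighter Opn1sw probe set, the Opn1sw difference was 0.69 log2 units deeper than that of Opn1mw, with an SD of 0.54 between injected arrays, and Opn1sw was the more reduced opsin on 3 of 4 arrays. Read from the dimmer one it was about the same as Opn1mw, so the data do not order the opsins beyond the spread between probe sets.

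Cone arrestin, Arr3, was measured by 3 probe sets. The brightest, 1441144_at, read 1135, 1083, 1260 and 1796 intensity units in injected replicates 1 to 4, against 2197, 2153, 2362 and 1917 in the controls. The gap between the groups was narrow here, 0.26 log2 units between the highest injected and the lowest control array. The log2 mean was 10.32 ± 0.28 in injected and 11.09 ± 0.09 in control retinas (SD, n = 4 each), a difference of -0.77 ± 0.19 (SE) or 58.5% of control.

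Another Arr3 probe set, 1450329_a_at, read 446, 392, 624 and 477 intensity units in injected replicates 1 to 4, against 1190, 1516, 1233 and 1197 in the controls. It had the widest gap of the 7 probe sets, 1.29 log2 units, and, on the normalised log2 scale, the closest agreement among injected arrays. Its log2 mean was 8.86 ± 0.11 in injected and 10.38 ± 0.17 in control retinas (SD, n = 4 each), a difference of -1.52 ± 0.17 (SE). The injected mean lay close to the filter floor on dim signal (log2 value 8.50, about 345 intensity units), where a difference is less certain.

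The third Arr3 probe set, 1425232_x_at, is of a class that can bind related transcripts. It read 648, 657, 488 and 618 intensity units in injected replicates 1 to 4, against 939, 1081, 979 and 1003 in the controls, without overlap. The log2 difference was -0.89 ± 0.24 (SE). All 3 probe sets were lower in injected retina, but they differed by up to 0.74 log2 units in how much.

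Kcne2, the channel subunit, has 1 probe set on the array. This probe set, 1449421_a_at, read 15539, 9062, 7115 and 22818 intensity units in injected replicates 1 to 4, against 30101, 30200, 33551 and 29819 in the controls. The control arrays lay close together, whereas the injected arrays were spread over 1.60 log2 units with replicate 3 lowest and replicate 4 highest. The log2 mean was 13.63 ± 0.74 in injected and 14.92 ± 0.09 in control retinas (SD, n = 4 each), a difference of -1.30 ± 0.33 (SE) or 40.7% of control. Without injected replicate 3 it was -1.05. Control replicate 2, the array with the most pigment epithelium signal, read 30200 at Kcne2, within the range of the other controls. The part of pigment epithelium in the Kcne2 difference was not tested.

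**Figure D1:**
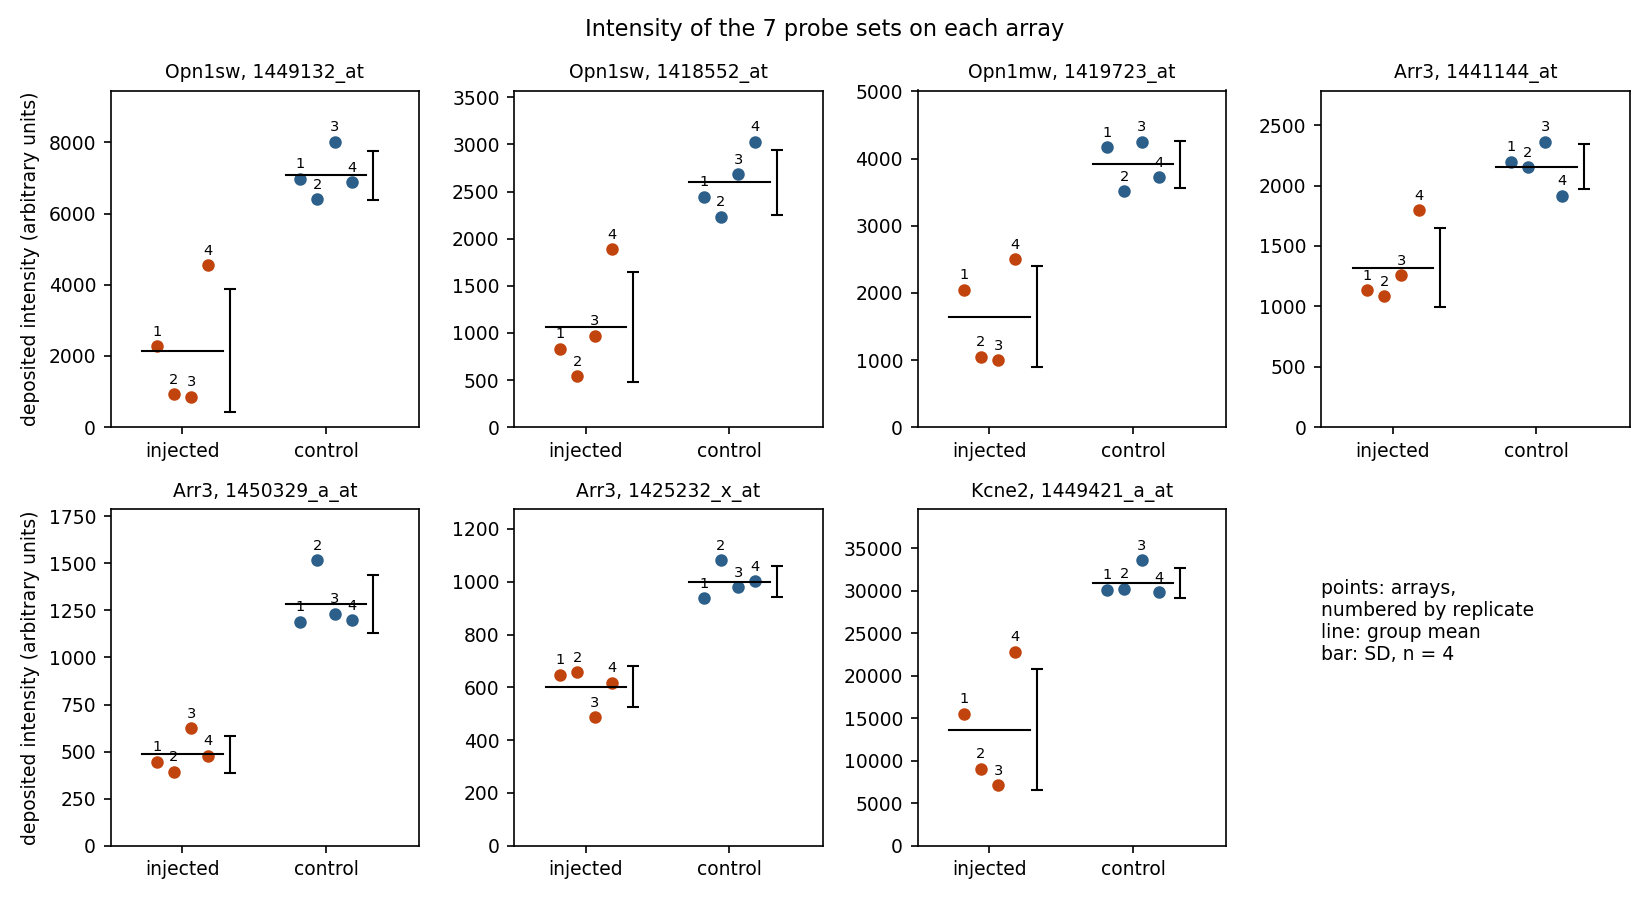
Deposited intensity (arbitrary units, axes from 0) of the 7 probe sets of Opn1sw, Opn1mw, Arr3 and Kcne2 on 4 injected and 4 control arrays, with points numbered by replicate, lines at group means and bars of SD (n = 4). At all 7 probe sets every injected array lies below every control array, and injected replicate 4 is the highest injected array at 5 of 7.

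At all 7 probe sets the 4 injected arrays lay below the 4 control arrays. The same held for 2.6% of the 27022 probe sets tested, and nothing is read from the contrast between these shares because the genes were chosen on this comparison. The log2 differences ran from -2.07 to -0.77 with a median of -1.39, beside a median of -0.02 over all probe sets tested. By rank of the difference, 9 probe sets of 27022, itself included, were at least as negative as the brighter Opn1sw probe set, 119 as that of Opn1mw, 157 as that of Kcne2 and 1097 as the brightest of Arr3. The count was 89 for Opn1sw at 1418552_at, 68 for Arr3 at 1450329_a_at and 733 for Arr3 at 1425232_x_at. The order of the genes by this rank thus depends on the probe set.

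The injected arrays ordered alike for the opsins and Kcne2 at their brightest probe sets. At the brightest probe set of each gene and on the normalised log2 scale, replicate 3 was lowest for all 4 genes and replicate 4 was nearest to the controls, while replicates 1 and 2 changed places for Arr3. On the deposited scale the lowest injected array for Arr3 at that probe set was replicate 2 (1083), with replicate 3 at 1260. Averaged over the 4 genes, injected replicates 1 to 4 stood at -1.12, -1.77, -2.13 and -0.52 log2 units against the control mean, and control replicates 1 to 4 stood at 0.02, -0.08, 0.14 and -0.08. The spread between arrays was wider in the injected group (SD 0.28 to 1.20 log2 units at these 4 probe sets, against 0.09 to 0.14 in control). Opn1mw and Kcne2 differed by 0.09 log2 units in their mean reduction. Over all 7 probe sets replicate 3 was the lowest injected array at 5 and replicate 4 the highest at 5 on the log2 scale. At Opn1sw 1418552_at replicate 2 was lowest, at -2.03 against the control mean, and at Arr3 1425232_x_at replicate 2 was highest, at -0.47. At Arr3 1450329_a_at replicate 4 was the lowest injected array on the log2 scale, at -1.69, and all 4 lay within 0.24 log2 units. On the deposited scale replicate 4 was not the lowest there (477 against 392 in replicate 2), so that order depends on the normalisation.

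**Figure D2:**
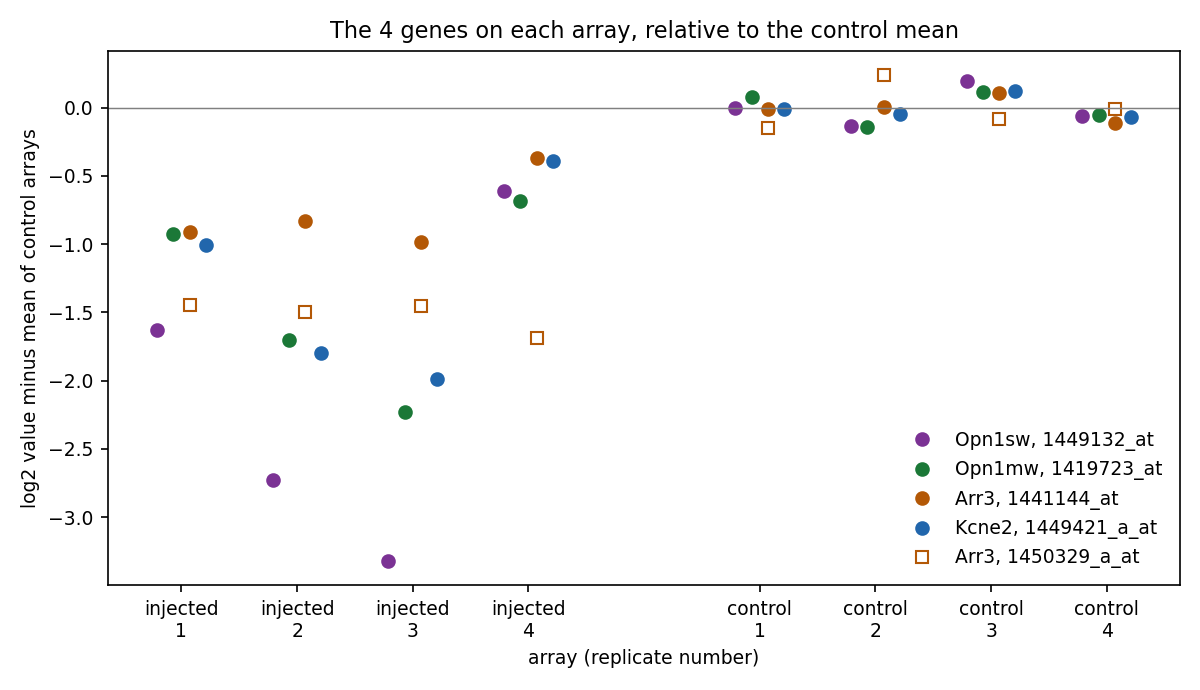
Log2 value minus the mean of the control arrays (y axis) on each injected and control array (x axis, replicate number), with filled points for the brightest probe set of Opn1sw, Opn1mw, Arr3 and Kcne2 and open squares for Arr3 at 1450329_a_at. The filled points average -0.52 in injected replicate 4 and -2.13 in injected replicate 3, whereas the open squares stay between -1.69 and -1.44 on all injected arrays.

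The other genes of the cone pathway were read from a list of 13, of which 12 could be read and 11 passed the filter on dim signal. By limma with Benjamini-Hochberg adjustment over all 27022 probe sets, 0 of the 11 were higher and 0 were lower in injected retina, as for the whole table, in which 0% passed in either direction. At an unadjusted p under 0.05, 0 were higher (3.66% of all probe sets) and 1 was lower (3.33% of all). That gene was Gnat2, the alpha subunit of cone transducin, with a log2 value of 14.53 ± 0.52 in injected and 15.31 ± 0.12 in control retinas (SD, n = 4 each) and a difference of -0.79 ± 0.26 (SE; limma adjusted p = 0.654). All 11 differences were negative, with a median of -0.27 and a range from -0.79 to -0.02. The low end of the range was Otop3 (-0.79 ± 0.73, SE), slightly below Gnat2. Its injected mean (8.23) lay under the filter floor, so Otop3 passed the filter through the control arrays. Over all probe sets tested, 52.4% of differences were negative.

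The effector enzyme subunits and the channel of the cone cascade had smaller differences than the opsins. The opsins were chosen for low injected signal, so nothing is read from that contrast. Pde6h, the inhibitory subunit of the cone phosphodiesterase, differed by -0.49 ± 0.24 (SE; adjusted p = 0.725), and Pde6c, its catalytic subunit, by -0.27 ± 0.25. Gngt2 and Gnb3, the gamma and beta subunits of cone transducin, differed by -0.37 ± 0.22 and -0.17 ± 0.29. The channel subunit Cngb3 differed by -0.24 ± 0.19 and the exchanger Slc24a2 by -0.19 ± 0.30. The groups overlapped at each of these 6 genes. Gnat2, at -0.79, differed about as much as Arr3 at its brightest probe set (-0.77).

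Rod genes gave a median close to that of the other cone genes. Of 16 listed, 14 could be read and all 14 were tested, with a median difference of -0.29. Differences were negative for 11 and positive for 3, beside 52.4% negative over all probe sets tested. The adjusted threshold was passed by 0 in either direction. Of the 14, 2 were lower (3.33% of all probe sets) and 1 higher (3.66% of all) at an unadjusted p under 0.05. Without injected replicate 3 this median was -0.18. Sag, the rod arrestin, differed by -0.30 ± 0.21 (SE; adjusted p = 0.754), Gnat1, the rod transducin, by -0.29 ± 0.26, and Pde6b, a rod phosphodiesterase subunit, by -0.64 ± 0.24. Genes used by rods and cones alike had a median of -0.40 over 21 tested of 27 listed, with 0 passing. At an unadjusted p under 0.05, 7 were lower (3.33% of all probe sets) and 0 higher (3.66% of all). That median was -0.26 without injected replicate 3 and also -0.26 without injected replicate 2. Among those 7, the guanylate cyclase activator Guca1a differed by -1.14 ± 0.33 (adjusted p = 0.588) and the opsin kinase Grk1 by -2.10 ± 0.63 (adjusted p = 0.591). The injected arrays averaged 7.79 at Grk1, which is under the filter floor.

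Transcription factors and other genes listed as regulators of cone opsins in mouse had a median of -0.32 over 13 tested of 16. Of these, 0 passed the adjusted threshold in either direction. At an unadjusted p under 0.05, 1 was higher (3.66% of all probe sets) and 1 lower (3.33% of all). The median was -0.19 without injected replicate 3. Crx, the photoreceptor homeodomain factor, differed by -0.45 ± 0.19 (SE; adjusted p = 0.712) with groups that did not overlap. Samd7, a repressor in rods, differed by 0.68 ± 0.21 in the other direction (adjusted p = 0.613). Thrb, the thyroid hormone receptor needed for medium-wavelength opsin, differed by -0.17 ± 0.31, and Rxrg lay below the filter floor.

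The tested relatives of the 4 genes showed no call at the adjusted threshold. Of the other opsins, 4 of 6 were tested, with a median of -0.50 and 0 passing. At an unadjusted p under 0.05, 1 was lower (3.33% of all probe sets) and 0 higher (3.66% of all). The lower one was Opn3, at -0.82 ± 0.29. The melanopsin gene Opn4 differed by -0.03 ± 0.18. Of the other arrestins, 3 of 3 were tested with 0 passing at either threshold, and Arrb1 and Arrb2 differed by -0.63 ± 0.34 and 0.25 ± 0.21. Of Kcne relatives and the channels that Kcne proteins accompany, 6 of 15 were tested with a median of -0.47 and 0 passing at either threshold. Among them Kcnh2 differed by -0.46 ± 0.25 and Kcne4 by 0.03 ± 0.75, while Kcne1, Kcne3 and Kcnq1 lay below the filter floor.

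**Figure D3:**
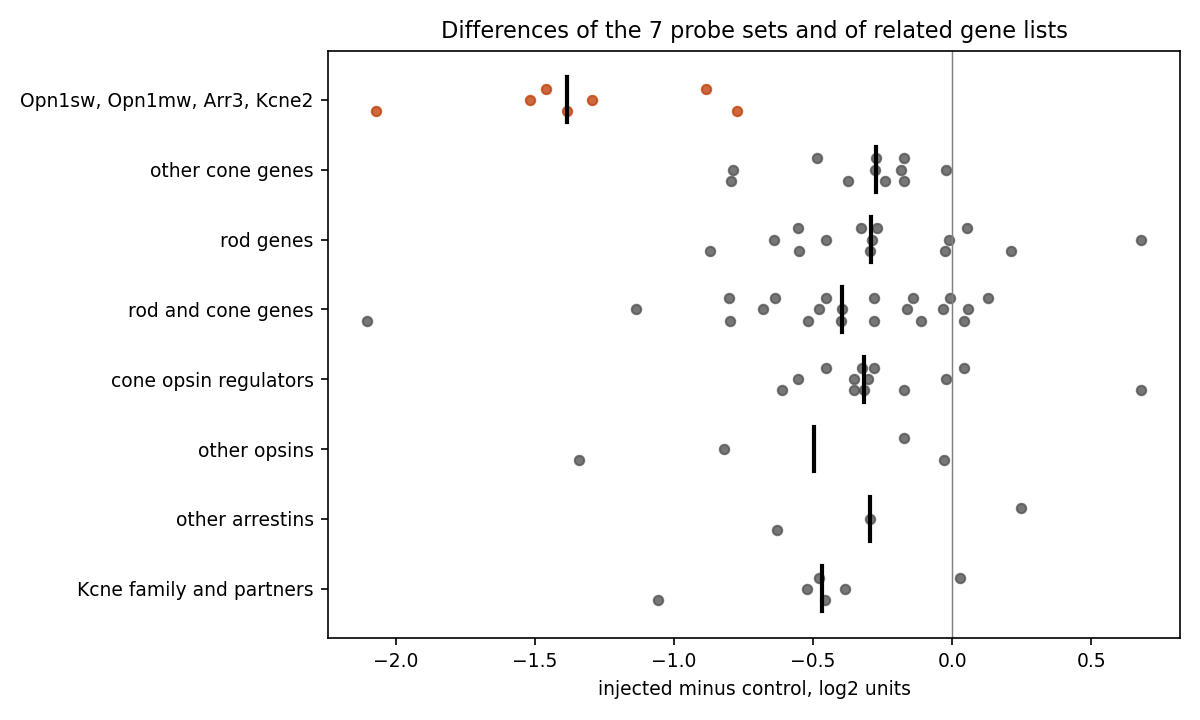
Injected minus control difference in log2 units (x axis) for the 7 probe sets of the 4 genes and for the tested genes of 7 related lists (rows), 1 point per probe set or gene, with bars at the medians. The 7 probe sets have a median of -1.39, whereas the medians of the other cone genes and the rod genes are -0.27 and -0.29; the 4 genes were chosen for low injected signal, and no test was made between rows.

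RNA integrity and markers of other cells were read on the same arrays. The ratio of 3′ to 5′ signal of the Gapdh control probe sets, a measure of RNA integrity and labelling in which a higher value means more 3′ bias, was 2.73 ± 0.31 log2 units on injected and 1.96 ± 0.21 on control arrays (SD, n = 4 each), and the groups did not overlap (exact two-sided permutation p = 0.0286, which is the lowest value possible with these group sizes, and 0.0571 adjusted over 2 ratios). The same ratio for actin was 5.66 ± 0.19 on injected and 5.54 ± 0.28 on control arrays (exact two-sided permutation p = 0.486). Injected replicate 3, lowest at the brightest probe set of all 4 genes on the normalised log2 scale, had the highest Gapdh ratio (3.14), and injected replicate 2, the next lowest for the opsins and Kcne2, had the lowest of the injected group (2.40). The part of RNA integrity in the differences of the 4 genes was not tested.

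Microglia markers had more summed signal on every injected array than on any control array. Of 13 listed, 10 were tested and 0 passed the adjusted threshold. At an unadjusted p under 0.05, 6 were higher (3.66% of all probe sets) and 0 lower (3.33% of all). The 10 tested had a median difference of 0.72, with 9 positive and 1 negative. Their summed intensity ran from 74680 to 229400 on injected and from 35290 to 59450 on control arrays. Csf1r, the brightest marker (log2 15.58 on injected and 14.32 on control arrays), weighs most in that sum. Of 14 pigment epithelium markers, 11 were tested with 0 passing. There were 2 lower (3.33% of all probe sets) and 0 higher (3.66% of all) at an unadjusted p under 0.05. The 11 summed to between 42030 and 142200 on injected and between 84070 and 346200 on control arrays. Their median difference was -0.89 (10 negative and 1 positive), and -0.27 without control replicate 2. Rpe65 differed by -3.02 ± 0.73 (SE, limma adjusted p = 0.513). The injected mean of Rpe65 (8.04) lay under the filter floor, so it passed the filter through the control arrays. Choroid plexus epithelium, a site of Kcne2 expression, was represented by 8 of 11 tested markers with 0 passing. Of these, 1 was lower (3.33% of all probe sets) and 0 higher (3.66% of all) at an unadjusted p under 0.05. The 8 summed to between 55320 and 121600 on injected and between 90360 and 155800 on control arrays. Ttr was the brightest marker of the pigment epithelium and choroid plexus lists alike (log2 15.56 on injected and 16.44 on control arrays). It weighs heavily in both sums, so they are not separate readings of 2 tissues. Otx2, also a photoreceptor factor, is in the choroid plexus list too (14.01 and 14.29). Of 12 lens markers, 7 were tested with 0 passing. The 7 summed to between 4456 and 86570 on injected and between 1426 and 16390 on control arrays. At an unadjusted p under 0.05, 3 were higher (3.66% of all probe sets) and 0 lower (3.33% of all). Of these 3, Crygd and Crybb2, both crystallins, had control means of 7.44 and 8.07, under the filter floor, and passed the filter through the injected arrays. No marker was at 0, and of 5 blood markers 4 could be read and 0 passed the filter. The part of any of these cells in the differences of the 4 genes was not tested. Without control replicate 2 and injected replicate 3 together, the differences were -1.73 for Opn1sw and -1.17 for Opn1mw, and -0.72 for Arr3 and -1.06 for Kcne2, at the brightest probe set of each.

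**Figure D4:**
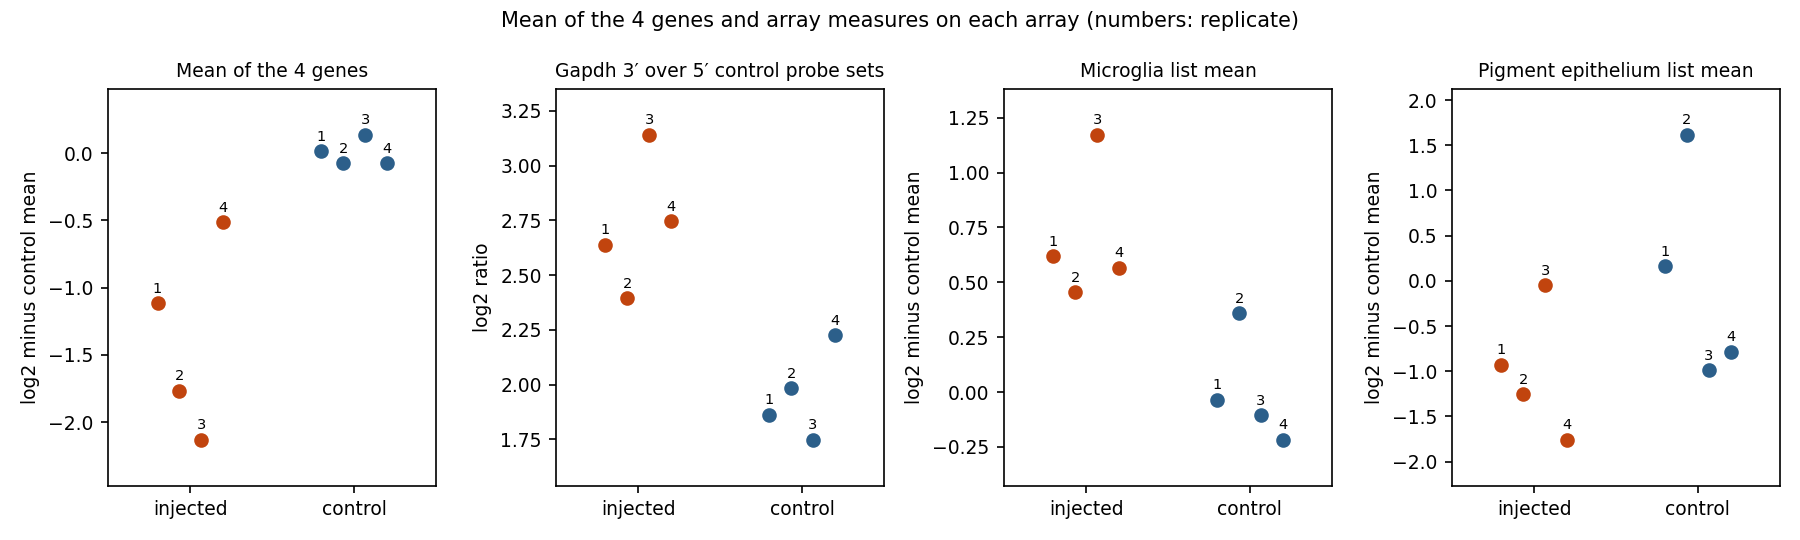
Measures on each array (injected and control columns, points numbered by replicate), namely the mean log2 deviation of the 4 genes from their control mean, the log2 ratio of 3′ to 5′ Gapdh signal, and the mean log2 deviation of the microglia and pigment epithelium lists. The Gapdh ratio lies between 2.40 and 3.14 on injected and between 1.75 and 2.23 on control arrays, and control replicate 2 has the highest pigment epithelium mean.

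Genes with the array pattern most like that of the 4 were ranked by a distance, the root mean square over the 8 arrays of the difference between 2 profiles, each taken against its control mean. Opn1mw and Kcne2 were 0.15 log2 units apart by this measure, closer to each other than either was to any of 12882 other genes. The closest other gene was the MAP kinase phosphatase Dusp1, at 0.17 from Opn1mw and 0.20 from Kcne2, and the pair stayed closer to each other than to any other gene under all 4 other scalings and pseudocounts. Dusp1 was also closest to the mean profile of the 4 genes (0.17), followed by Dusp4 (0.28), Wdr95 (0.31), Gm16551 (0.32), 4930423M02Rik (0.33) and Sptssb (0.34), beside a median distance of 1.12 over all genes. On injected replicates 1 to 4, Dusp1 stood at -1.17, -1.64, -1.87 and -0.82 log2 units against its control mean. Among the other cone genes Gnat2 came closest, at 0.45 in place 37. Opn1sw was nearest to 4930423M02Rik (0.56) and Nemp1 (0.58), and Arr3 to Bzw2 (0.09) and Pank1 (0.14). The injected means of Wdr95 (8.39), 4930423M02Rik (7.75) and Nemp1 (7.79) lay under the filter floor, so these 3 passed it through the control arrays. A search over this many genes finds close profiles in part by its size, and the distances are a description. Opn1mw and Kcne2 were both chosen for low signal on these injected arrays, so nothing is read from their closeness. The other scalings and pseudocounts reuse the same values.

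**Figure D5:**
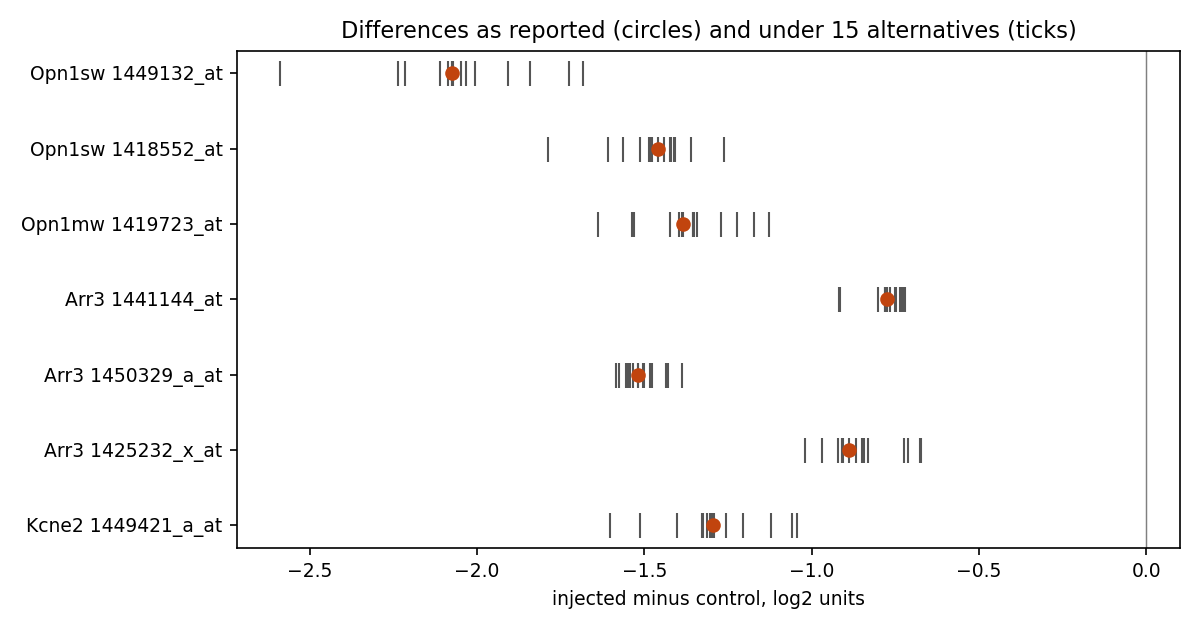
Injected minus control difference in log2 units (x axis) for each of the 7 probe sets (rows), with circles for the reported value and ticks for 15 alternatives of scaling, pseudocount, weighting, replicate block and arrays left out. All values are negative, from -2.59 for Opn1sw at 1449132_at without injected replicate 4 to -0.67 for Arr3 at 1425232_x_at without control replicate 2 and injected replicate 3.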

How the data were processed

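The values deposited by the authors are linear intensities, 1 for each probe set on each array; the trimmed mean of each array, with 2% left out at each end, is 2500 on all 8. The software is not given in the sources used here. Of 45037 probe sets without array controls, 34945 had 1 gene symbol in the platform annotation, 932 several and 9160 none; 34741 matched a current symbol by Entrez identifier and 0 changed. Array medians differed up to 1.55-fold, so intensities were quantile-normalised in limma 3.58.1 (R 4.3.3) and taken as log2(intensity + 16), which understates differences of dim genes. Probe sets at or above the 40th percentile of mean log2 were tested, 27022 in all, with lmFit and eBayes, Benjamini-Hochberg adjustment and a threshold of 0.05; the script was tested on simulated data. Genes of a list were read at their brightest probe set. Exact permutation used scipy 1.17.1 and figures matplotlib 3.10.9. The 4 genes, the lists and the tests were chosen with earlier results of these data known. Genes were named by a rule: the 7 probe sets, from every list at most 4 genes with the lowest p, tissue markers and the closest profiles; further list genes were named for their role after their values were seen. Sequences are from RefSeq (GRCm38.p6). Gene records were matched to RefSeq by Entrez identifier, and their coordinates are not given.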

Additional observations from a re-analysis of the deposited data

How the results depend on the processing

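The differences of the 7 probe sets kept their sign in all 105 recomputations (15 alternatives each) and moved by less than the SD between arrays pooled over both groups. Leaving out 1 array gave -2.59 to -1.68 for Opn1sw, -1.64 to -1.13 for Opn1mw, -0.92 to -0.72 for Arr3 and -1.60 to -1.05 for Kcne2 at the brightest probe sets. The 165 recomputed list medians kept their sign. Median centring lowered the median of all probe sets to -0.15; relative to that shift the brightest probe sets stood at -2.08, -1.38, -0.76 and -1.36 for Opn1sw, Opn1mw, Arr3 and Kcne2. It gave 645 probe sets higher and 1404 lower at an unadjusted p under 0.05 (31.5% higher), the deposited scaling gave 67.7% higher, and the reported setting gave 990 and 899 (52.4% higher). With no filter 1493 were higher in this way. Adjusted calls numbered 0 in either direction as reported, 7 higher and 1 lower with array weights, and between 0 and 29 higher and 0 and 5 lower when 1 array was left out, the 29 and 5 without injected replicate 4. Unadjusted counts then ran from 776 to 1158 higher and from 549 to 1278 lower, with 565, 580 and 549 lower without control replicates 1, 2 and 4. Same-numbered arrays did not vary together (r from -0.03 to 0.08 over probe sets), and a replicate block gave 0 calls, 962 higher and 852 lower at an unadjusted p under 0.05, and the same differences. Of the 6 closest profiles, 4 or 5 were shared under other scalings and pseudocounts, Dusp1 first each time. Dim signal limits Arr3 at 1450329_a_at and 1425232_x_at.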
